A study of Homo sapiens with 3 samples.

Results

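The annexins were followed in THP1, a human line derived from an acute monocytic leukemia and known for its MLL-AF9 fusion, together with ANXA2P2, a processed pseudogene of ANXA2. The 8 annexin genes and the pseudogene were looked up by name, the genes by their UniProt accessions and the pseudogene by its Ensembl transcript, which makes 9 members, 6 of which have a row among the 213543 features of the count table. The members were selected on their names with the fold changes of ANXA2P2 and ANXA2 against 0 h already known, so these values are given as a description. The untreated THP1 cells (0 h, labelled as control) were compared with THP1 cells given 0.2 µM GSK-LSD1, an inhibitor of the histone demethylase LSD1, for 8 h or 24 h. The inhibitor is used in the study to start monocytic differentiation. Each time point is 1 library of ribosomal RNA-depleted total RNA from the same line, so no difference below has a replicate check, no p-value is given, and every value compares libraries. The labels do not say what vehicle, if any, the untreated cells received.

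Counts of reads per feature summed to 1475938 in the untreated library, 1310912 after 8 h of GSK-LSD1 and 1444011 after 24 h. CPM below are counts scaled to 1e6 per library after adjustment of the library sizes with TMM. A feature without a count could hold up to 3 counts, which is 1.95 CPM at 0 h, 2.34 at 8 h and 2.11 at 24 h. All intervals are 95% intervals of counting error alone. The reads carry no molecular identifiers, so that several reads can stem from 1 molecule. Among 10 myeloid marker accessions, 8 had counts. The highest were CEBPA with 1848, 1716 and 1717 and LYZ with 655, 747 and 1773 at 0 h, 8 h and 24 h. CD14 had 0, 5 and 6 counts, and CD68 had 0, 2 and 2, which is within the 3 counts above. CD33 and CSF1R were at 0 under the accessions used. The 3 erythroid markers and EPCAM, an epithelial marker, were at 0 under theirs in all 3 libraries, and the lymphoid markers held 1, 0 and 1 counts.

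Annexins are cytosolic proteins that bind phospholipid membranes when calcium is present. They share a folded core of repeats that holds the calcium sites and differ in the N-terminal tail, where partner proteins bind. ANXA1 is known in monocytes and macrophages as an anti-inflammatory ligand of formyl peptide receptors. ANXA2 joins with S100A10 into a complex at the cell surface and on endosomes, where it binds plasminogen and its activator. ANXA5 is widely used as a probe for phosphatidylserine on dying cells. In bulk RNA, fewer cells that use a gene and less RNA per cell cannot be told apart.

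ANXA2P2 and ANXA2 are so close in sequence that their reads are the first question for any count of either. ANXA2P2 lies on the forward strand at chr9:33624274-33625293 (GRCh38) as a single exon of 1020 bases, and no other annotated transcript overlaps it. ANXA2 lies on the reverse strand at chr15:60347134-60402883, and its canonical transcript of 1554 bases in 13 exons holds a coding sequence of 1017 bases without the stop codon. The pseudogene aligned over its whole length to ANXA2, covering all 1017 coding bases, and differed at 16 of 1020 bases (98.4% identity). The stretch of 90 bases with the most differences is shown for both genes, with the 5 differing bases in capitals. It holds positions 131 to 220 of the pseudogene, chr9:33624404-33624493, and the same positions of the ANXA2 coding sequence, which lie in 2 exons within chr15:60364452-60382359 on the reverse strand.
ANXA2P2: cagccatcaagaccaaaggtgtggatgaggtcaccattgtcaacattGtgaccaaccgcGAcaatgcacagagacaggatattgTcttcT
ANXA2: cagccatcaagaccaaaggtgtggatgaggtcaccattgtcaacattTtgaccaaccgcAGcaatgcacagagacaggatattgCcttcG

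The longest run without a difference was 221 bases, positions 364 to 584 of the pseudogene (chr9:33624637-33624857), and it is shown because no read that lies within it can be told from an ANXA2 read. In ANXA2 it spans 3 exons within chr15:60354158-60357230 on the reverse strand.
Shared run: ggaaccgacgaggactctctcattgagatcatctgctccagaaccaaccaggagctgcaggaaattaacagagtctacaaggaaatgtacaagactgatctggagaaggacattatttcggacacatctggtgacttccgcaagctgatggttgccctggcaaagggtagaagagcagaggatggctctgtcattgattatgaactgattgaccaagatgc

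Of the 971 windows of 50 bases in ANXA2P2, 59.2% also occurred letter for letter in an annotated ANXA2 transcript. The share was 43.9% of 946 windows of 75 bases and 31.2% of 921 windows of 100 bases. The other pseudogenes of ANXA2 are further from it. ANXA2P1 had 93.8% identity and shared 8.10% of its 50-base windows with ANXA2, and ANXA2P3 had 92.2% identity and shared 0.730%. The read length and the way in which reads fitting several places were counted are not given in the sources used here.

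**Figure D1:**
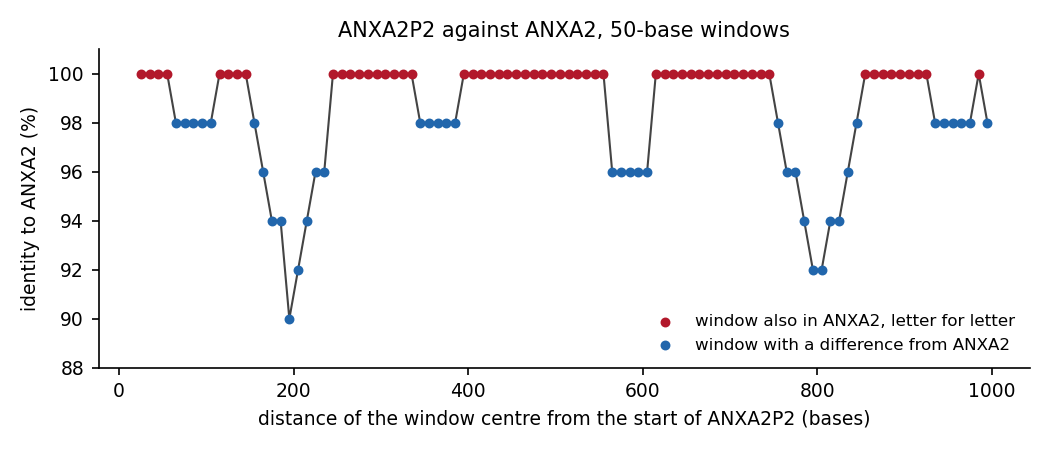
Identity of ANXA2P2 to ANXA2 in windows of 50 bases (y axis, percent, from 88 up), by the distance of the window centre from the start of the pseudogene (x axis, bases). Red points are windows found letter for letter in ANXA2 and blue points are windows with a difference. The lowest identity is 90%, and the blue windows are spread along the pseudogene.

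Of the 9 members, 6 had a row in the table and 2 of these, ANXA2P2 and ANXA7, reached 10 counts in a library. The row of ANXA2 (P07355) held no count at 0 h and 8 h and 1 count at 24 h. The rows of ANXA3 (P12429), ANXA6 (P08133) and ANXA11 (P50995) were at 0 in all 3 libraries. ANXA1 (P04083), ANXA4 (P09525) and ANXA5 (P08758) had no row under these accessions and were not analysed here in that form. These zeros do not stand for the genes as a whole. GENCODE v44 lists 66 protein-coding transcripts for the 8 annexin genes, of which 1 has a row under its own identifier, and the coding reads can stand under other accessions, whose genes the files do not name. Of the 53 other transcripts of the 9 members, 39 have a row.

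ANXA2P2 held 12 counts in the untreated library, 33 after 8 h and 73 after 24 h of GSK-LSD1, or 7.81, 25.8 and 51.4 CPM. The lowest library was the untreated one and the highest was that of 24 h. The ratio at 8 h against 0 h was 3.30-fold (interval 1.66 to 7.02). After 24 h, relative to 0 h, it was 6.58-fold (3.55 to 13.3), a log2 ratio of 2.72. From 8 h to 24 h it was 1.99-fold (1.31 to 3.11). On the scale used for all features, log2 CPM with a prior count of 2, its log2 fold changes were 1.56, 2.52 and 0.96. Of the 9609 features tested, 98.9%, 99.7% and 95.5% lay below these values. These percentages describe a member that was chosen with its change known.

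Of the 2 members tested, ANXA2P2 alone was higher by more than 1 on the log2 scale, in both treated libraries relative to 0 h. As for the other direction, 0 of the 2 were lower by as much. Over all 9609 features, 4.51% were higher by more than 1 at 8 h and 6.19% at 24 h relative to 0 h, while 6.02% and 5.58% were lower. From 8 h to 24 h, 0 of the 2 were past this threshold, against 4.03% of features higher and 1.97% lower. The median log2 fold change of ANXA2P2 and ANXA7 was 1.02 at 8 h, 1.60 at 24 h and 0.58 from 8 h to 24 h. Over all features the medians were -0.01, -0.01 and 0.00. With 2 members the median is their mean, and ANXA7 alone was at 0.47, 0.68 and 0.21. The other, ANXA2P2, was chosen with its change known.

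For ANXA2 itself, 9 transcripts have a row under an Ensembl identifier, most of them with a retained intron or with no coding sequence defined, and 6 of them had counts. Together they held 6, 35 and 36 counts, or 3.91, 27.3 and 25.3 CPM. Both treated libraries lay above the untreated library and close to each other. The ratio to 0 h was 7.0-fold at 8 h (2.91 to 20.4) and 6.49-fold at 24 h (2.71 to 18.8), and from 8 h to 24 h it was 0.927-fold (0.566 to 1.52). The largest part came from the retained-intron transcript ENST00000504475.6, a transcript of 3528 bases in 10 exons with 3, 15 and 16 counts. Of its exon bases, 67.6% lie in no other ANXA2 transcript and 32.4% lie in exons of coding transcripts. The retained-intron transcript ENST00000560546.5, with 0, 4 and 8 counts, has 82.1% of its bases in no other ANXA2 transcript. ENST00000560936.2, without a defined coding sequence, had 0, 6 and 3 counts. ENST00000559559.5, a retained-intron transcript, had 3, 3 and 5.

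These ANXA2 transcripts count parts of the locus that ANXA2P2 lacks, since a processed pseudogene holds no introns, as well as coding exons that it shares. ANXA2P2 made up 66.7% of the counts in ANXA2P2, the ANXA2 accession and these transcripts at 0 h, with a Wilson interval of 43.7% to 83.7%. At 8 h the share was 48.5% (37.1% to 60.2%), and at 24 h it was 66.4% (57.1% to 74.5%). The share at 8 h was the lowest, and its interval overlapped that of both other libraries. With the ANXA2 accession alone, which had 1 count in all, the share was 100%, 100% and 98.6% with lower ends of 75.8%, 89.6% and 92.7%. Taken as 1 group, these rows of ANXA2 and ANXA2P2 held 18, 68 and 110 counts. That is 4.53-fold higher at 8 h than at 0 h (2.66 to 8.10) and 6.61-fold higher at 24 h (3.99 to 11.6). Any coding ANXA2 reads counted in rows that could not be named are in neither these shares nor this sum. The part of ANXA2 reads in the count of ANXA2P2 was not tested. ANXA2P1 was at 0 in all 3 libraries, and ANXA2P3 had 1 count, at 24 h.

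ANXA7 is a widely expressed annexin that takes part in membrane fusion and secretion. It is encoded on the reverse strand at chr10:73375101-73414076, and its row (P20073) had 66, 77 and 99 counts, or 43.0, 60.1 and 69.7 CPM. The ratio to 0 h was 1.40-fold at 8 h, with an interval that included no difference (0.994 to 1.98), and 1.62-fold at 24 h (1.18 to 2.25). From 8 h to 24 h it was 1.16-fold (0.852 to 1.58), and a difference was not detectable at this depth. ANXA7 and ANXA2P2 both had an interval wholly above no difference at 24 h against 0 h, as did 13.0% of all features, and 12.6% had one wholly below. At 8 h against 0 h, ANXA2P2 had such an interval and ANXA7 did not, beside 11.7% of features above and 9.71% below. The 1 count of its further transcripts turned this for ANXA7, whose log2 ratio with it was 0.50 with a lower interval end of 0.01. From 8 h to 24 h it was again ANXA2P2, beside 4.87% above and 5.58% below. ANXA7 had 2 further transcripts with a row, which held 0, 1 and 0 counts. Per kb of annotated transcript, ANXA7 was at 17.6 CPM per kb at 0 h with an exact Poisson interval of 13.6 to 22.4. After 8 h of GSK-LSD1 it was 24.6 (19.4 to 30.8), and after 24 h it was 28.5 (23.2 to 34.7). On the same scale of levels, ANXA2P2 was at 7.66 (3.96 to 13.4), 25.3 (17.4 to 35.5) and 50.4 (39.5 to 63.4). With these lengths, ANXA2P2 lay below ANXA7 at 0 h and above it at 24 h, and the intervals overlapped at 8 h. They were apart at 24 h and, at 0 h, only by 13.4 against 13.6. The length of the canonical ANXA7 transcript, 2443 bases, stands in for that of the counted feature, which is not given. Its coding sequence has 1398 bases. A shorter length would raise the ANXA7 values, so the gap at 24 h depends on the length used. The ANXA2P2 values take all 1020 bases as countable, although many of its windows also occur in ANXA2. The order at 0 h depends on this as well, and how such reads were counted is not known.

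**Figure D2:**
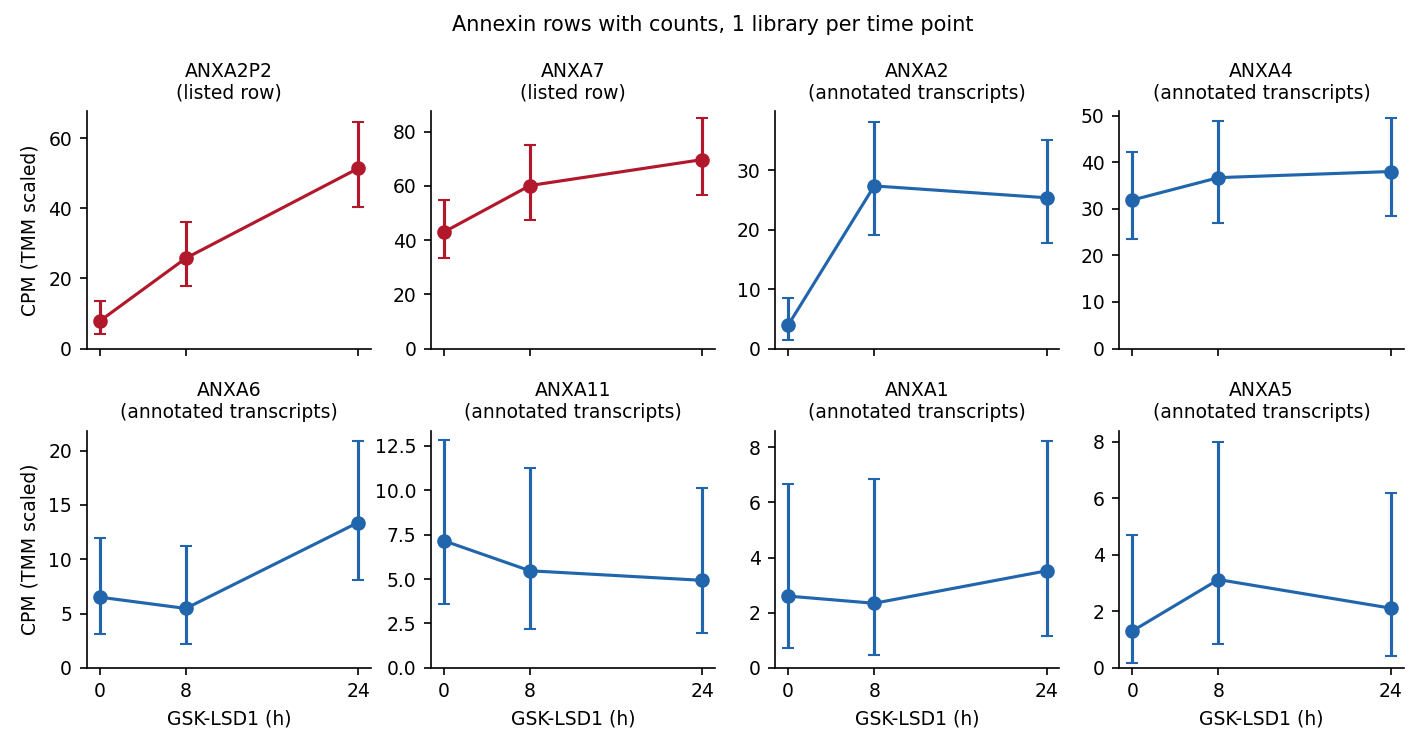
CPM after TMM scaling (y axis, from 0, with its own range in each panel) by hours of GSK-LSD1 (x axis) for ANXA2P2 and ANXA7 (red, listed rows) and for the summed annotated transcripts of ANXA2, ANXA4, ANXA6, ANXA11, ANXA1 and ANXA5 (blue). Points are single libraries and bars are exact 95% Poisson intervals. ANXA2P2 goes from 7.81 to 51.4 CPM, and ANXA4 stays between 31.9 and 38.0.

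The other annexins could be followed only through transcripts that are mostly not coding. ANXA4, an annexin of epithelial and secretory membranes, lies at chr2:69644425-69827112, and its 7 transcripts with a row held 49, 47 and 54 counts. Its ratio to 0 h was 1.15-fold at 8 h (0.755 to 1.75) and 1.19-fold at 24 h (0.795 to 1.79), and a difference was not detectable at this depth. Of its transcripts, 3 reached 10 counts. The retained-intron transcripts ENST00000471395.1 and ENST00000477632.5 had 21, 20 and 20 counts and 18, 14 and 19 counts. ENST00000418066.2, without a defined coding sequence, had 10, 11 and 13.

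ANXA6, a larger annexin with a longer core (chr5:151100706-151157815), held 10, 7 and 19 counts over 4 transcripts. The library of 24 h was the highest, and its ratio of 2.06-fold to 0 h had an interval that included no difference (0.909 to 4.95). Its ratio was 2.45-fold from 8 h to 24 h (0.985 to 6.89). At 0 h and 24 h, most ANXA6 counts came from ENST00000519610.1, a transcript of 2 exons with 90.9% of its bases in no other ANXA6 transcript. It held 6, 2 and 12 counts. This transcript had a ratio of 5.41-fold from 8 h to 24 h, with an interval wholly above no difference (1.20 to 49.8). That ratio rests on 2 counts at 8 h, under the floor of 3, and was not set against 3 counts as planned. Against 0 h the intervals of the transcript included no difference at both times. ANXA11, which tethers RNA granules to lysosomes, held 11, 7 and 7 counts over 4 transcripts, 0.688-fold at 24 h against 0 h (0.226 to 1.94). ANXA1 (chr9:73151865-73170393) held 4, 3 and 5 counts over 4 transcripts without a defined coding sequence. ANXA5 (chr4:121667946-121696995) held 2, 4 and 3 over 6 transcripts. Counts of this size could not show a change. The 3 transcripts of ANXA3 were at 0.

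Of the annexin genes that were not listed, ANXA9 had 1, 2 and 1 counts under its accession (O76027), and ANXA8, ANXA8L1, ANXA10 and ANXA13 were at 0 under theirs. Of the annotated transcripts of these genes, that of ANXA8L1 had 1 count in each library and the others were at 0. ANXA2R-AS1 and ANXA2R-OT1 are long non-coding RNAs named for the neighbouring gene ANXA2R, not for an annexin. ANXA2R-AS1 had 121, 94 and 112 counts, 0.932-fold at 8 h (0.704 to 1.23) and 1.0-fold at 24 h (0.767 to 1.31) against 0 h. Its transcript ENST00000658237.1 held most of them, with 83, 68 and 74 counts, and ENST00000657793.1 had 26, 17 and 28. ANXA2R-OT1 had 17, 21 and 16 counts, of which ENST00000654466.1 held 11, 14 and 11.

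Proteins that bind annexins were followed from a list of 9, whose accessions were paired with gene names as UniProt gives them, since the files do not pair them. Of these, 8 had a row and 4 were tested. S100A10 (P60903), the partner of ANXA2, had 28, 55 and 99 counts. Each later library was higher, 2.36-fold at 8 h (1.47 to 3.86) and 3.82-fold at 24 h (2.49 to 6.05) against 0 h. AHNAK (Q09666), a very large scaffold protein that binds the ANXA2-S100A10 complex, had 4646, 7093 and 10261 counts. Its ratio to 0 h was 1.83-fold at 8 h (1.76 to 1.90) and 2.39-fold at 24 h (2.31 to 2.47). S100A6 (P06703), which binds several annexins, had 10, 17 and 25 counts. Its ratio to 0 h was 2.04-fold at 8 h, with an interval that included no difference (0.882 to 4.98). At 24 h it was 2.70-fold (1.25 to 6.31). SRI (P30626), or sorcin, a calcium-binding partner of ANXA7, had 14, 4 and 9 counts, and its interval included no difference at 8 h (0.0822 to 1.09) and at 24 h (0.265 to 1.72).

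At 24 h against 0 h, 3 of the 4 tested partners, S100A10, S100A6 and AHNAK, were higher by more than 1 on the log2 scale and 0 were lower, beside 6.19% and 5.58% of all features. Their median log2 fold change was 1.26, and that of all features was -0.01. The 9 partners were listed with earlier results of these data known, and only 4 could be tested. These values are a description of the listed genes. At 8 h, 1 was higher (S100A10) and 1 lower (SRI), beside 4.51% and 6.02% of all features, and the medians were 0.88 and -0.01. From 8 h to 24 h, 0 of the 4 were past the threshold, where 4.03% of all features were higher and 1.97% lower. The receptors of ANXA1 had few counts, FPR1 (P21462) 2, 3 and 6 and FPR2 (P25090) 4, 4 and 2. S100A4 (P26447) had 2, 0 and 2. PDCD6 (O75340) was at 0 under its accession, while its annotated transcripts held 45, 29 and 37 counts, 0.889-fold at 24 h against 0 h (0.560 to 1.41). S100A11 (P31949) had no row under this accession, and its annotated transcript had 1 count, at 24 h.

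**Figure D3:**
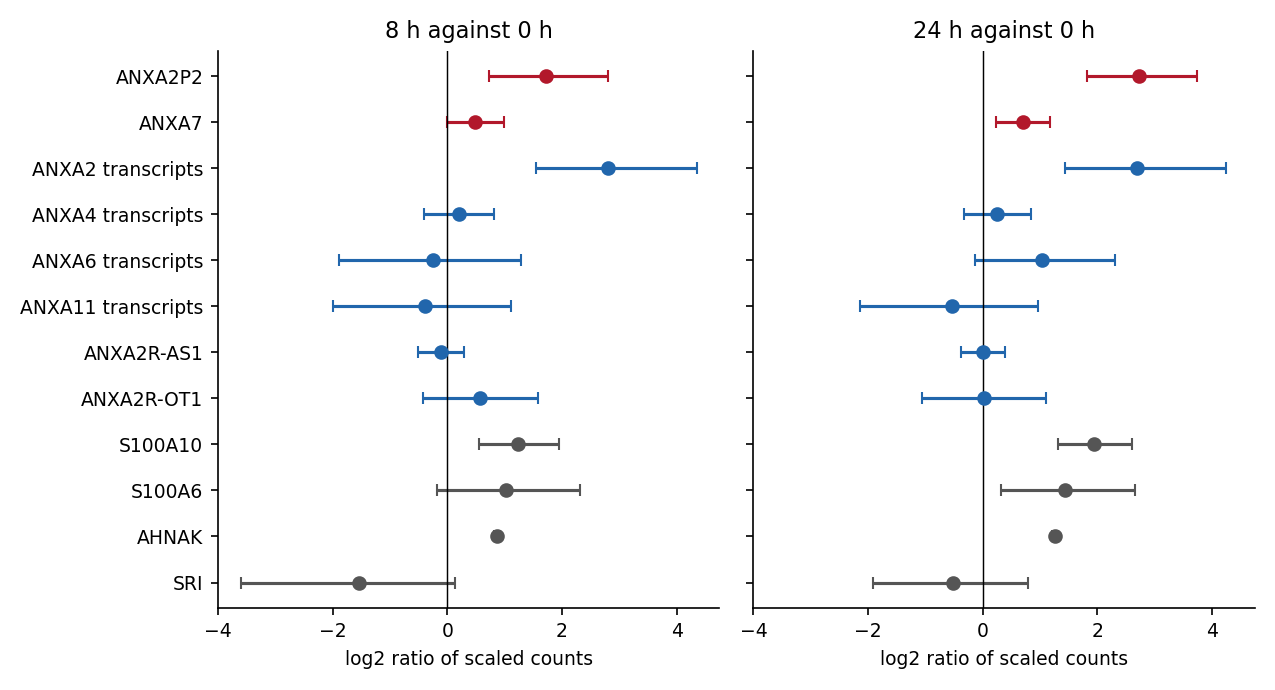
Log2 ratios of scaled counts (x axis) at 8 h and at 24 h against 0 h for ANXA2P2 and ANXA7 (red), annotated transcripts summed by gene (blue) and annexin partners with at least 10 counts in a library (grey). Bars are exact 95% counting intervals, and that of AHNAK is narrower than its point. At 24 h the intervals of ANXA2P2, ANXA7, ANXA2, S100A10, S100A6 and AHNAK lie above 0.

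**Figure D4:**
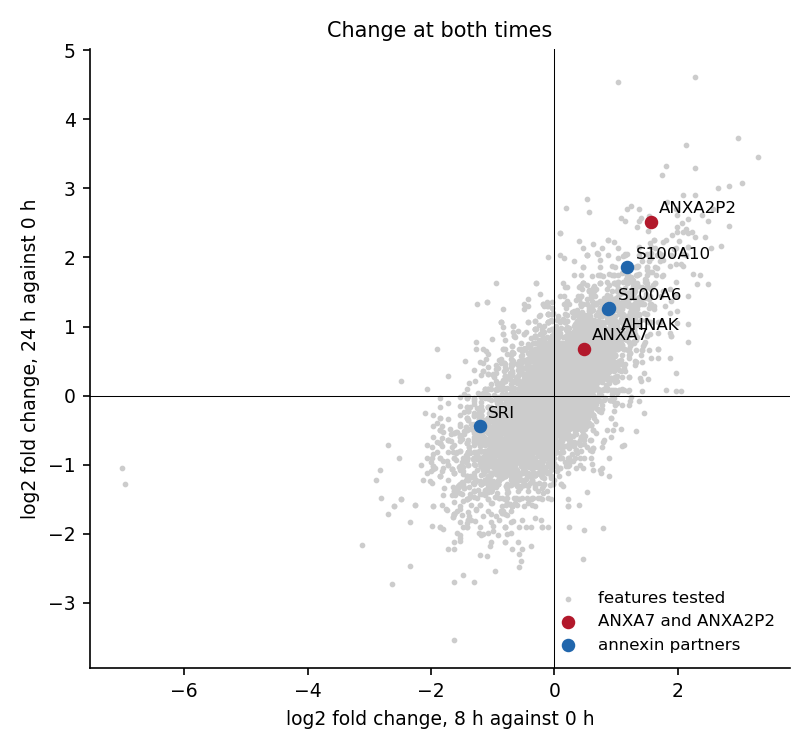
Log2 fold changes at 8 h (x axis) and 24 h (y axis) against 0 h, with a prior count of 2, for the 9609 features tested (grey), ANXA7 and ANXA2P2 (red) and the 4 tested partners (blue). Both axes share the 0 h library. ANXA2P2 lies at 1.56 and 2.52, above the partners and ANXA7 on both axes.

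The features nearest to ANXA2P2 were sought among 539 named transcripts with at least 30 counts in a library. The measure was the Euclidean distance between the pairs of log2 fold changes at 8 h and 24 h against 0 h. Only rows with an Ensembl transcript identifier were compared, and rows under UniProt identifiers were left out. All rows with Ensembl identifiers held 7.83%, 7.13% and 7.42% of the counts at 0 h, 8 h and 24 h. With 3 libraries this likeness rests on 2 values. The nearest was LINC00649, a long non-coding RNA, at a distance of 0.50, with 15, 58 and 88 counts. The next was NCF1C, a pseudogene of a subunit of the phagocyte NADPH oxidase, at 0.62 with 8, 17 and 37 counts. It was followed by SCARNA5, a small Cajal body RNA, at 0.63 with 5, 25 and 32. NCF1C and SCARNA5 reached 30 counts at 24 h only.

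Promoters were read from RefSeq (GRCh38.p14) as 250 bases before and 50 after the start of each gene, which gave 8 of the 9 members and all 9 partners. They were searched on both strands for TGANTCA (AP-1), GAGGAAGT (PU.1) and TTGCNNAA (C/EBP), of which no member promoter held more than 1. Of all 35116 promoters, 7.71% held the first, 2.59% the second and 10.5% the third. Among the members, ANXA2 held the AP-1 word and ANXA1 the C/EBP word, and 0 of the other members with a promoter held any. Among the partners, FPR1 and 1 of the 2 promoters of SRI held the AP-1 word and S100A11 the C/EBP word. The 250 bases before the start of ANXA2, chr15:60397987-60398236 on the reverse strand, are shown because counts of its transcripts were higher in both treated libraries. The capitals mark the AP-1 word, which begins 127 bases before the start. A match is a word in the sequence and not a bound site.
ANXA2 promoter: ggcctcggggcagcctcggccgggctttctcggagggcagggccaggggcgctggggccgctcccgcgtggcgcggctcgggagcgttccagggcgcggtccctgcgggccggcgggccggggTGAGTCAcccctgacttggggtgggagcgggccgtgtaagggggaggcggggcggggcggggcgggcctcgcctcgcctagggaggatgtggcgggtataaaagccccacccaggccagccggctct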

How the data were processed

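RNA-seq libraries of THP1 cells at 0 h, 8 h and 24 h of GSK-LSD1 were assigned from the sample titles, and count columns by name. The authors deposited raw counts, as whole numbers for each feature. Per the submitters' processing notes and the methods, fastp and STAR were used within Seq2science on hg38. The counter, annotation and strand setting are not given in the sources used here. Library sizes were scaled with TMM (edgeR 4.0.16, R 4.3.3), features reaching 10 counts in 1 or more libraries were tested, and log2 fold changes used a prior count of 2. Ratios used no prior count and exact (Clopper-Pearson) intervals conditional on the sum of both counts; shares used Wilson intervals. No ratio is given where both counts were at or under 3. No p-value was computed, since each time point has 1 library. Sequences came from GENCODE v44 and RefSeq and were aligned with Biopython 1.88. Steps were tested on simulated data that held counting error alone, so the test could not show spread between libraries. Alternatives were scaling by DESeq2 1.42.0 or by total counts, and other filters, thresholds and prior counts.

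The members, gene lists and rules were chosen with earlier results of these data known. Named were the members, other annexins, annexin transcripts with at least 10 counts, 9 partners, marker genes and the 3 transcripts nearest to ANXA2P2. The rarer ANXA2 transcripts, ANXA2P1, ANXA2P3 and PDCD6 and S100A11 transcripts were added after their values were seen.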

Additional observations from a re-analysis of the deposited data

How the results depend on the processing

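The count of members higher by more than 1 on the log2 scale did not change with DESeq2 size factors, total counts, other prior counts, other filters or a loess correction. With a threshold of 2, 0 members were past it at 8 h in place of 1. With counting intervals wholly above no difference, 2 members were counted at 24 h against 0 h in place of 1, and 1 from 8 h to 24 h in place of 0. Without a filter on low counts, the median log2 fold change of the members included rows at 0. It was 0.00 at 8 h, 0.29 at 24 h and 0.10 from 8 h to 24 h, in place of 1.02, 1.60 and 0.58. With annotated ANXA2 transcripts added, the share of ANXA2P2 was 66.7% at 0 h, 48.5% at 8 h and 66.4% at 24 h. All 21 alternative log2 ratios of ANXA7 and ANXA2P2 lay within their main intervals. They scaled the same counts by other library sizes or, for ANXA7, added its annotated transcripts, so they do not measure spread between libraries. With the 1 count of its annotated transcripts added, the interval of ANXA7 at 8 h moved wholly above no difference. With total counts, the log2 ratio of ANXA2P2 was 1.63 at 8 h and 2.64 at 24 h, and that of ANXA7 was 0.39 and 0.62. No paired analysis was possible because each time point has 1 library. At this depth, single annexin transcripts with under 10 counts in every library were given no ratio of their own.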
